A study of Mus musculus with 16 samples.

Results

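The 10 genes described here encode protein kinases that phosphorylate tau, the activator of 1 of these kinases, and the catalytic subunit of the phosphatase that reverses their action. They were taken by gene symbol (Gsk3a, Gsk3b, Cdk5, Cdk5r1, Mark1, Mark2, Mark3, Mark4, Fyn and Ppp2ca) and are 10 of the 24060 genes listed for mouse cortex. No measured value was used to choose them. Tau is a neuronal protein that binds and stabilises microtubules. Kinases add phosphate groups to it at many sites and phosphatases remove them, and heavily phosphorylated tau leaves microtubules and is the form found in the aggregates of tauopathies. The kinases fall into proline-directed enzymes (the Gsk3 kinases and Cdk5), enzymes that act on the microtubule-binding repeats (the MARK family) and tyrosine kinases (Fyn), while protein phosphatase 2A (PP2A) is the main tau phosphatase of the brain. All of these enzymes are also regulated after translation, by phosphorylation, cleavage and binding partners, which mRNA levels do not show.

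Cortex was sampled from 16 mice aged 8 to 9 months on a strain given as C57BL/6; C3, with 2 females and 2 males in each of 4 genotypes. The groups were P301S+ TREM2-/- mice (knockouts, n = 4), which carry the P301S tau transgene and no intact Trem2 allele, P301S+ TREM2+/- mice (heterozygotes, n = 4), P301S+ TREM2+/+ mice (n = 4) and TREM2+/+ controls without the transgene (n = 4). Trem2 encodes a surface receptor of microglia. The labels name neither the promoter that drives the transgene nor the deleted part of Trem2, and they give no litter, day or batch, so p-values measure the spread between these libraries. Levels are given as RPKM (for each gene, its reads per kilobase in every 1000000 reads) from libraries that read the 3′ ends of transcripts. Fitted differences are on the log2(RPKM + 1) scale, from limma over all 12015 genes with a mean of at least 1 RPKM, and a gene is said to have risen or fallen only with a Benjamini-Hochberg adjusted p under 0.05.

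Transcripts reach past their coding sequence, as in Mark1-201, which has 4221 bases of which 2388 are coding. Reads of 3′ ends can thus lie outside the coding bases. The coding sequences below describe how related these genes are. Whether the reads tell them apart was not tested. The last 60 coding bases of the 4 MARK genes, which lie in the C-terminal kinase-associated domain, show how far the family has diverged there (GENCODE M21 transcripts, GRCm38, 5′ to 3′, stop codon in capitals).
Mark1: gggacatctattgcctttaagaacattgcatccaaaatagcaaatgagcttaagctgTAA
Mark2: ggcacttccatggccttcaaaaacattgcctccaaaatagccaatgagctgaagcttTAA
Mark3: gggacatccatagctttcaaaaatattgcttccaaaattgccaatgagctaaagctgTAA
Mark4: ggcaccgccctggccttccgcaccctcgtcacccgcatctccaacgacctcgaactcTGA
Mark1 differed from Mark2 and from Mark3 at 10 of these bases each, and Mark2 from Mark3 at 9, whereas Mark4 differed from Mark1, Mark2 and Mark3 at 29, 23 and 28 bases. The closest pair was Ppp2ca and its paralogue Ppp2cb, which encode the alpha and beta forms of the PP2A catalytic subunit and whose coding sequences of 930 bases were 81.7% identical. Their last 60 coding bases differed at 8 positions, shown in capitals, and they are printed because the level of these genes is compared later.
Ppp2ca: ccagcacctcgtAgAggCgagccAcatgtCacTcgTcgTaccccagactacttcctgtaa
Ppp2cb: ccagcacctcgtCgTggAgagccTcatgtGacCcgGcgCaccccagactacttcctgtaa

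The libraries held 2.55 to 14.47 M reads (M, 1000000 reads). Trem2 was at 2.09 ± 1.11 RPKM in knockouts, 12.9 ± 8.98 in the heterozygotes, 27.0 ± 8.69 in P301S+ TREM2+/+ mice and 12.4 ± 5.53 in controls (n = 4 per genotype, ± SD). The knockouts lay below every other library. The excitatory neuron markers, 6 of 6 above 0 in every library, summed to 2498 to 4806 RPKM in knockouts, 1516 to 4914 in the heterozygotes, 2064 to 3725 in P301S+ TREM2+/+ mice and 3221 to 9515 in controls. Striatal markers, of which 5 of 6 were found, were also present and summed to 99.4 to 716.4 RPKM over the 16 libraries. Choroid plexus markers (4 of 4 found, 2 above 0 in every library) summed to 114.4 to 982.4 RPKM in knockouts and 66.5 to 587.1 in the heterozygotes. Their sums were 208.0 to 1754 RPKM in P301S+ TREM2+/+ mice and 107.3 to 519.7 in controls. The first principal component (52.4% of the variance) set 1 female control, replicate 3, apart from the rest, and the second (14.6%) set the P301S+ TREM2+/+ females apart. For all 10 genes control replicate 3 lay outside the range of the other 15 libraries, above it for 7 and below it for 3, and the same was true of 66.6% of all genes tested. It also had the highest excitatory neuron marker sum, at 9515 RPKM against at most 6686 in any other control. Its inhibitory neuron markers (6 of 6 above 0) had the lowest sum of all libraries, at 504.8 RPKM against 640.9 to 787.4 in the other controls. Its endothelium markers (4 of 4) summed to 37.6 RPKM against 21.4 to 24.7. Its microglia markers (7 of 7 above 0) summed to 298.8 RPKM against 139.7 to 153.0 in the other controls, its oligodendrocyte precursor markers (5 of 5) to 40.1 against 118.2 to 130.7, and its hippocampus markers (3 of 3) to 8.30 against 31.6 to 47.8. The part of these differences in the results was not tested. The numbers of genes called by limma are therefore given with and without it. In bulk tissue, fewer cells of a type and less RNA per cell cannot be told apart.

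The levels of the 10 genes spanned a wide range. Over the 15 libraries without control replicate 3, Cdk5r1 had the highest mean at 287 RPKM, followed by Ppp2ca at 121, Gsk3b at 66.2, Gsk3a at 61.1, Fyn at 45.9, Cdk5 at 36.9, Mark1 at 19.5, Mark3 at 13.2, Mark2 at 3.67 and Mark4 at 0.782 RPKM. The ranges of Gsk3b, Gsk3a, Fyn and Cdk5 overlapped from each to the next, while Cdk5r1, Ppp2ca, Mark1, Mark3, Mark2 and Mark4 each had a range of their own. These orders are per length of the gene, and 3′ reads do not grow in number with that length. For Mark4 the length recovered from the values, 2259 bases, equals the coding length of transcript Mark4-201 (3886 bases in full), and for Ppp2ca the recovered length, 1930 bases, is far from that of transcript Ppp2ca-201 (7102 bases), so the places of Mark4 and Ppp2ca in this order are not on the same footing as the others. Mark4 passed the minimum mean of 1 RPKM only through control replicate 3, and without that library 9 of the 10 genes were tested.

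**Figure D1:**
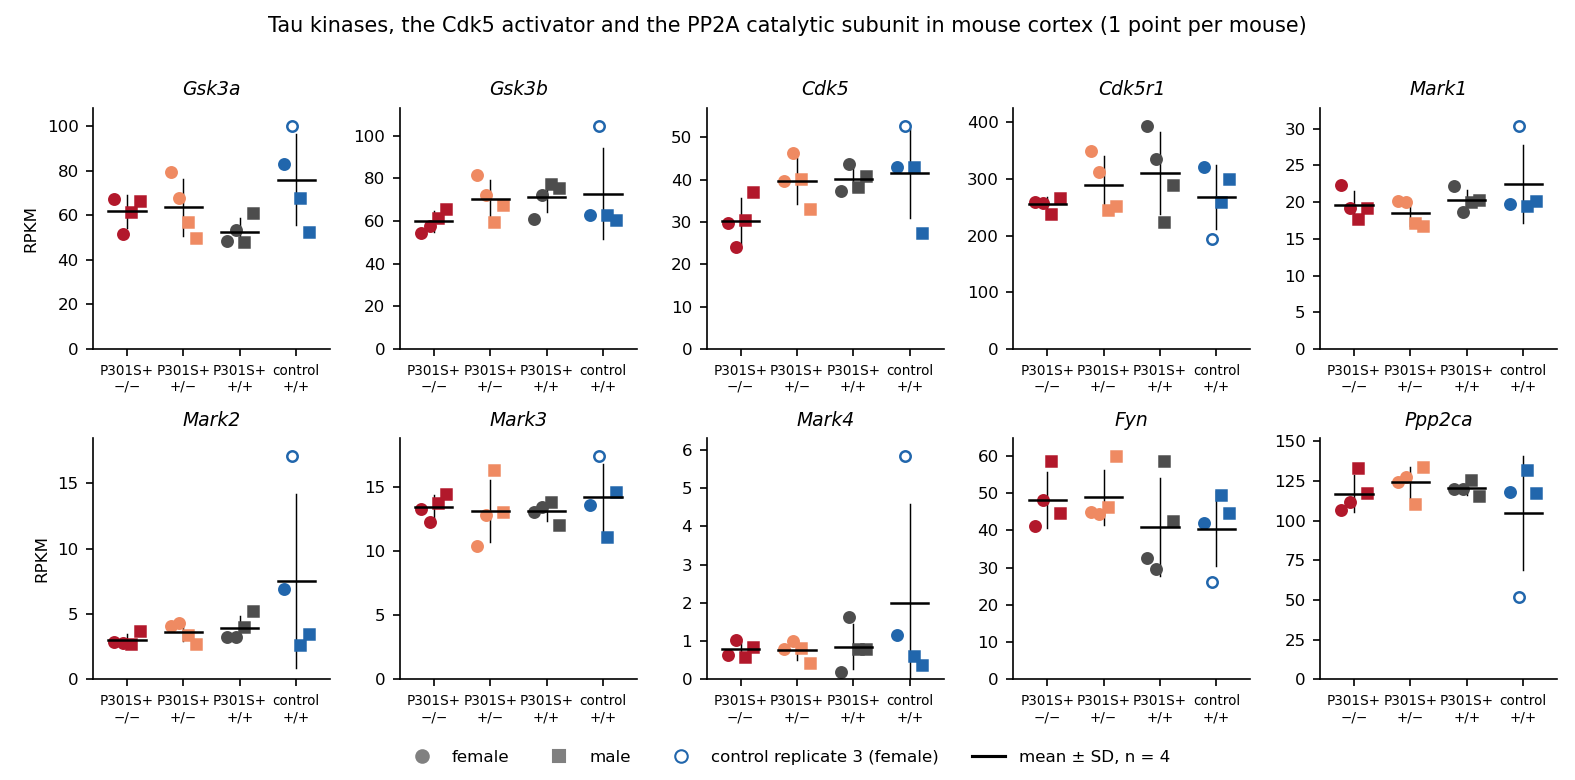
RPKM of the 10 genes in each of the 16 libraries, by genotype (TREM2-/-, TREM2+/- and TREM2+/+ with the P301S transgene, then TREM2+/+ controls), with circles for females, squares for males, horizontal bars for the mean and vertical bars for 1 SD (n = 4, cut off at 0). The open circle is control replicate 3, which is the highest or lowest of all libraries for every gene, and the other libraries of the 4 genotypes overlap for every gene except Cdk5 between knockouts and P301S+ TREM2+/+ mice.

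No gene of the set passed the test for a difference between genotypes in any of the 7 comparisons. With all 16 libraries, 4 differences had an unadjusted p under 0.05, all of them negative and all against controls. They were Gsk3a in P301S+ TREM2+/+ mice (log2 difference -0.49), Cdk5 in knockouts (-0.42), and Mark2 in knockouts (-0.80) and over all tau mice (-0.64). Without control replicate 3 the same differences were -0.37, -0.30, -0.36 and -0.20, and of these Gsk3a alone had an unadjusted p under 0.05. For the P301S effect (P301S+ TREM2+/+ mice against controls), limma called 0 of 10, against 0.0% of all genes, while 1 of the 10 and 1657 of all genes had an unadjusted p under 0.05. For partial loss of Trem2 (heterozygotes against P301S+ TREM2+/+ mice) it called 0 of 10, against 0.0% of all genes, and 0 of the 10 and 324 of all genes had an unadjusted p under 0.05. For complete loss (knockouts against P301S+ TREM2+/+ mice) it called 0 of 10, against 0.00832% of all genes (Trem2 itself), and 0 of the 10 and 1190 of all genes had an unadjusted p under 0.05. These counts hold Mark4 with the limit given above. For knockouts against heterozygotes, heterozygotes against controls and knockouts against controls limma called 0 of 10 in each, against 0.0% of all genes in each, and 0, 0 and 2 of the 10 had an unadjusted p under 0.05, against 3.42%, 9.6% and 9.71% of all genes. For the mean of the 3 tau genotypes against controls it called 0 of 10, against 0.00832% of all genes (Prnp, the prion protein gene), with 1 of the 10 at an unadjusted p under 0.05, against 16.4% of all genes. Comparisons with P301S+ TREM2+/+ mice share those 4 libraries, and comparisons with controls share the controls.

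Leaving out control replicate 3 made the estimates narrower and called none of the genes either. Limma then called 0 of 9 for the P301S effect, against 0.0418% of all genes, 0 of 9 for partial loss, against 0.0%, and 0 of 9 for complete loss, against 0.117%. It called 0 of 9 for knockouts against heterozygotes, heterozygotes against controls, knockouts against controls and all tau mice against controls, against 0.0167%, 0.0251%, 0.00835% and 0.0167% of all genes. At an unadjusted p under 0.05 it found 1 of 9 for the P301S effect, against 21.2% of all genes, 0 for partial loss, against 10.3%, 2 for complete loss, against 23.7%, and 1 for knockouts against heterozygotes, against 7.76%. Limma-voom on the recovered reads of all 16 libraries called 0 of the 10 in each of the 7 comparisons. A p over the threshold does not show equal levels, and the 95% intervals give the sizes of difference that remain possible. With 16 libraries the interval lay within a 2-fold change of RPKM + 1 in either direction for 8 of 10 genes for the P301S effect. It did so for 10 of 10 for partial loss and 9 of 10 for complete loss, with Mark4 counted under the limit given above. Without control replicate 3 it did so for 9 of 9 in each of the 7 comparisons. It then lay within a 1.5-fold change of RPKM + 1 for 8 of 9 for the P301S effect and 7 of 9 for partial and for complete loss. For genes of low level, such as Mark2 and Mark4, a change of RPKM + 1 stands for a larger change of RPKM. These counts therefore do not bound their change in RPKM at 2-fold.

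**Figure D2:**
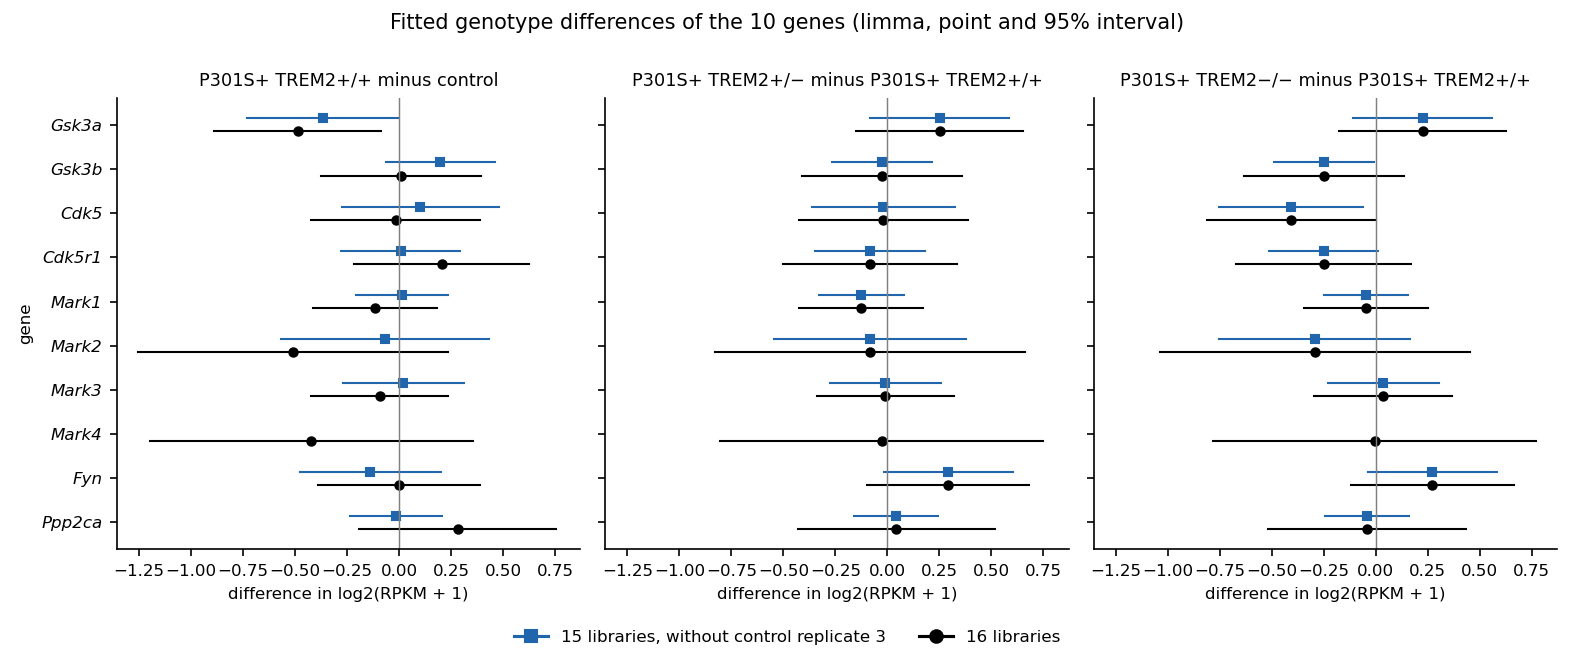
Fitted difference in log2(RPKM + 1) (x axis) for each gene (y axis) in 3 comparisons, with points for the limma estimate and lines for its 95% interval, in all 16 libraries (black circles) and without control replicate 3 (blue squares). Estimates lie between -0.51 and 0.29 with 16 libraries, where every interval holds 0 except that of Gsk3a for the P301S effect, and Mark4 has no estimate without control replicate 3 because it then falls below the minimum level.

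Gsk3a and Gsk3b encode glycogen synthase kinase 3 alpha and beta, constitutively active kinases that are held in check by insulin and Wnt signalling and phosphorylate tau at many sites. Gsk3a (chromosome 7, 25228258 to 25237851, minus strand, GRCm38) was at 67.6, 51.5, 61.5 and 66.7 RPKM in knockouts, 79.6, 68.1, 57.0 and 50.1 in the heterozygotes, 48.5, 53.3, 48.0 and 61.3 in P301S+ TREM2+/+ mice and 68.0, 83.0, 100.3 and 52.7 in controls. The P301S+ TREM2+/+ libraries were the lowest as a group, but their highest value exceeded the lowest of every other genotype. Gsk3a averaged 52.7 ± 6.17 RPKM (SD, n = 4) in P301S+ TREM2+/+ mice, against 76.0 ± 20.4 RPKM (n = 4) in controls. This was a log2 difference of -0.49 (SE 0.19, 95% interval -0.89 to -0.09, limma adjusted p = 0.307), the only unadjusted p under 0.05 among the genes for the P301S effect. Without control replicate 3 the log2 difference was -0.37 (interval -0.73 to -0.0040, adjusted p = 0.232). Gsk3a differed by 0.25 for partial loss (interval -0.15 to 0.65) and by 0.22 for complete loss (interval -0.18 to 0.63), on the log2 scale and short of the threshold. An exon of Gsk3a overlaps an exon of a gene on the other strand, and the sources used here do not say whether reads were counted by strand.

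Gsk3b (chromosome 16, 38089001 to 38246084, plus strand) was at 54.5, 57.7, 61.5 and 65.8 RPKM in knockouts, 81.6, 72.4, 59.6 and 67.5 in the heterozygotes, 60.9, 72.2, 77.3 and 75.6 in P301S+ TREM2+/+ mice and 63.1, 62.9, 104.7 and 60.3 in controls. The knockouts were lowest on average and the 3 controls other than replicate 3 lay close together between 60.3 and 63.1 RPKM. For complete loss the log2 difference was -0.25 (SE 0.18, interval -0.63 to 0.13, limma adjusted p = 0.655), and without control replicate 3 it was -0.25 (interval -0.49 to -0.0081, adjusted p = 0.197). For the P301S effect it was 0.0087 with all libraries and 0.20 without control replicate 3 (interval -0.06 to 0.46, adjusted p = 0.356). For partial loss it was -0.03 (interval -0.41 to 0.36). The Gsk3a and Gsk3b coding sequences were 71.6% identical and differed at 28 of their last 60 bases.

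Cdk5 is a neuronal cyclin-dependent kinase that is inactive on its own, and Cdk5r1 encodes p35, the membrane-anchored activator that calpain can cleave to the more stable p25. Cdk5 (chromosome 5, 24418241 to 24423530, minus strand) was at 29.7, 24.0, 30.4 and 37.1 RPKM in knockouts, 39.7, 46.2, 40.1 and 32.99 in the heterozygotes, 37.3, 43.7, 38.4 and 40.8 in P301S+ TREM2+/+ mice and 42.9, 43.1, 52.7 and 27.3 in controls. All 4 knockouts lay below all 4 P301S+ TREM2+/+ mice, by a gap of 37.1 to 37.3 RPKM at the nearest point, while they overlapped heterozygotes and controls. It was the only gene of the 10 whose groups did not overlap in any pair of genotypes, and 4.76% of all genes were likewise lower without overlap in knockouts than in P301S+ TREM2+/+ mice. Higher without overlap in that pair were 0 of 10, against 2.86% of all genes. In the other pairs the genes above and below without overlap were 0 and 0 of 10, against 3.55% and 1.27% of all genes for the P301S effect, 1.4% and 1.46% for partial loss, 2.96% and 2.41% for knockouts against heterozygotes, 2.73% and 1.66% for heterozygotes against controls, and 2.25% and 1.54% for knockouts against controls. The means were 30.3 ± 5.36 RPKM in knockouts and 40.1 ± 2.85 RPKM in P301S+ TREM2+/+ mice (SD, n = 4 each), a log2 difference of -0.41 (SE 0.19, interval -0.81 to 3e-05, limma adjusted p = 0.502). Without control replicate 3 the log2 difference was -0.41 (interval -0.75 to -0.06, adjusted p = 0.151). Against heterozygotes the knockouts differed by -0.39 (interval -0.79 to 0.02, adjusted p = 0.9999) and against controls by -0.42 (interval -0.83 to -0.02, adjusted p = 0.450). The knockout value of 24.0 RPKM came from the shallowest library and rests on 126 reads.

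Cdk5r1 (chromosome 11, 80477023 to 80481184, plus strand) was at 260.1, 257.2, 238.8 and 267.1 RPKM in knockouts, 349.8, 313.0, 245.0 and 253.3 in the heterozygotes, 394.1, 335.9, 224.3 and 289.1 in P301S+ TREM2+/+ mice and 258.9, 321.5, 193.8 and 300.6 in controls. The knockouts were the tightest group, with an SD of 12.1 RPKM against 49.9 in the heterozygotes, 71.9 in P301S+ TREM2+/+ mice and 56.3 in controls. For complete loss the log2 difference was -0.25 (SE 0.20, interval -0.67 to 0.17, limma adjusted p = 0.690), and for the P301S effect it was 0.21 with all libraries and 0.0076 without control replicate 3. Females were above males among heterozygotes and among P301S+ TREM2+/+ mice. The fitted male minus female difference was -0.20 on the log2 scale with all 16 libraries (limma adjusted p = 0.476) and -0.30 over the 15 libraries without control replicate 3 (adjusted p = 0.231). The other p35-like activator, Cdk5r2 (p39), was at 111.6 ± 19.6 RPKM in knockouts, 136.1 ± 45.5 in the heterozygotes, 133.0 ± 26.4 in P301S+ TREM2+/+ mice and 180.2 ± 93.2 in controls (n = 4 per genotype, ± SD). Control replicate 3 alone held 310.7 RPKM of Cdk5r2, and no comparison of this gene passed the threshold.

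The MARK kinases (microtubule affinity-regulating kinases) phosphorylate tau within its repeats, which releases it from microtubules, and are themselves switched on by the kinase LKB1. Mark1 (chromosome 1, 184896789 to 184999570, minus strand) was at 22.3, 19.2, 17.8 and 19.2 RPKM in knockouts, 20.2, 20.1, 17.1 and 16.7 in the heterozygotes, 22.2, 18.7, 19.98 and 20.3 in P301S+ TREM2+/+ mice and 19.5, 19.7, 30.4 and 20.1 in controls. Apart from control replicate 3, all libraries lay within 1.33-fold of each other. Its log2 difference for the P301S effect was -0.12 with all libraries (interval -0.42 to 0.18). Leaving out control replicate 3, it was 0.015 for the P301S effect (interval -0.21 to 0.24), -0.13 for partial loss (interval -0.33 to 0.08) and -0.05 for complete loss (interval -0.25 to 0.16). Mark3 (chromosome 12, 111574523 to 111656221, plus strand) was at 13.3, 12.3, 13.7 and 14.4 RPKM in knockouts, 10.4, 12.8, 16.3 and 13.0 in the heterozygotes, 13.0, 13.4, 13.8 and 12.02 in P301S+ TREM2+/+ mice and 11.1, 13.6, 17.4 and 14.6 in controls. Its genotype means thus ran from 13.1 to 14.2 RPKM. Its log2 difference was -0.09 for the P301S effect, -0.0096 for partial loss and 0.04 for complete loss, with intervals from -0.42 at the lowest to 0.37 at the highest. For the P301S effect it was 0.02 without control replicate 3 (interval -0.27 to 0.31).

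Mark2 (chromosome 19, 7275396 to 7341860, minus strand) was the most variable of the well-detected genes. It was at 2.83, 2.77, 2.66 and 3.66 RPKM in knockouts, 4.12, 4.29, 3.42 and 2.69 in the heterozygotes, 3.22, 3.24, 4.02 and 5.21 in P301S+ TREM2+/+ mice and 2.59, 6.88, 17.1 and 3.47 in controls. Both control females were above every tau mouse, and of the control males 1 was below every tau mouse, at 2.59 RPKM, and 1 within their range, at 3.47 RPKM. For the mean of the 3 tau genotypes against controls, the log2 difference was -0.64 (SE 0.28, interval -1.24 to -0.03, limma adjusted p = 0.295), and without control replicate 3 it was -0.20 (interval -0.62 to 0.23, adjusted p = 0.768). For knockouts against controls it was -0.80 with all libraries (interval -1.55 to -0.06, adjusted p = 0.450) and -0.36 without control replicate 3 (interval -0.86 to 0.14). Complete loss gave -0.29 (interval -1.04 to 0.45) and partial loss -0.08 (interval -0.83 to 0.66).

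Mark4 (chromosome 7, 19424775 to 19458821, minus strand) had few reads. It was at 0.648, 1.04, 0.592 and 0.853 RPKM in knockouts, 0.802, 1.004, 0.828 and 0.419 in the heterozygotes, 0.191, 1.63, 0.785 and 0.803 in P301S+ TREM2+/+ mice and 0.597, 1.16, 5.84 and 0.373 in controls. These values rest on 3 to 38 reads outside control replicate 3 and on 69 reads in it. The length recovered for Mark4 equals a coding length, as given above. Whether reads past the stop codon were left uncounted was not tested, so these counts do not give the level of Mark4 mRNA. All genotypes overlapped, and the intervals of its log2 difference were the widest of the 10 genes, from -0.80 to 0.75 for partial loss and from -0.78 to 0.77 for complete loss.

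Fyn is a tyrosine kinase of the Src family that phosphorylates tau near its N-terminus, binds its proline-rich region and also acts in oligodendrocytes during myelination. Fyn (chromosome 10, 39368855 to 39565381, plus strand) was at 41.3, 48.3, 58.5 and 44.8 RPKM in knockouts, 45.0, 44.3, 46.3 and 59.96 in the heterozygotes, 32.6, 29.6, 58.7 and 42.5 in P301S+ TREM2+/+ mice and 49.4, 42.0, 26.1 and 44.6 in controls. The 2 P301S+ TREM2+/+ females and control replicate 3 were the 3 lowest libraries, and all others were at or above 41.3 RPKM. The log2 difference was 0.29 for partial loss (SE 0.18, interval -0.10 to 0.68, limma adjusted p = 0.9996) and 0.27 for complete loss (SE 0.18, interval -0.12 to 0.66, adjusted p = 0.632). The fitted male minus female difference of Fyn was 0.40 on the log2 scale with all 16 libraries (limma adjusted p = 0.306) and 0.33 without control replicate 3 (adjusted p = 0.231). Oligodendrocyte markers, 8 of 8 above 0 in every library, summed to 817 to 1197 RPKM in knockouts, 787 to 950 in the heterozygotes, 685 to 955 in P301S+ TREM2+/+ mice and 545 to 708 in controls. Within P301S+ TREM2+/+ mice the females had sums of 685 and 690 RPKM and the males sums of 859 and 955 RPKM, and the part of this difference in the Fyn values was not tested.

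Ppp2ca (chromosome 11, 52098681 to 52127778, plus strand), the PP2A catalytic subunit alpha, varied least of the genes once control replicate 3 was left out. It was at 106.5, 111.4, 132.8 and 117.3 RPKM in knockouts, 124.0, 127.6, 110.6 and 133.7 in the heterozygotes, 119.6, 119.9, 125.4 and 115.7 in P301S+ TREM2+/+ mice and 131.6, 117.8, 51.8 and 117.6 in controls. Without control replicate 3 the highest library was 1.26 times the lowest, a coefficient of variation of 6.87% against a median of 20.5% over all genes tested. The other 8 genes with a value had coefficients from 7.96% for Mark1 to 31.4% for Mark2. The median of 20.5% is over genes not matched to Ppp2ca in level or reads, so it does not show how Ppp2ca compares with genes of like level. Over all 16 libraries the coefficient of Ppp2ca was 16.3%, above those of Mark3 (12.9%) and Mark1 (15.4%). The log2 difference without control replicate 3 was -0.015 for the P301S effect (interval -0.23 to 0.20), 0.04 for partial loss (interval -0.16 to 0.24) and -0.04 for complete loss (interval -0.24 to 0.16). With control replicate 3 the P301S effect was 0.28 (interval -0.19 to 0.75, limma adjusted p = 0.556), and the estimate thus rested on that library. Exons of Ppp2ca overlap those of other annotated genes on both strands.

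The paralogue Ppp2cb (chromosome 8, 33599625 to 33619441, plus strand), which encodes the beta form, did not follow Ppp2ca. It was at 85.6, 74.5, 90.0 and 77.7 RPKM in knockouts, 69.8, 58.0, 56.6 and 79.8 in the heterozygotes, 23.4, 25.4, 86.8 and 72.5 in P301S+ TREM2+/+ mice and 92.1, 63.2, 18.0 and 65.8 in controls. The 2 P301S+ TREM2+/+ females and control replicate 3 were low, at 18.0 to 25.4 RPKM, and all other libraries were at 56.6 RPKM or above. In the P301S+ TREM2+/+ females Ppp2ca was at 119.6 and 119.9 RPKM, within the range of the other genotypes. Within a library the ratio of Ppp2cb to Ppp2ca was 0.663 to 0.803 in knockouts and 0.455 to 0.596 in heterozygotes. It was 0.196 and 0.212 in P301S+ TREM2+/+ females, 0.692 and 0.627 in P301S+ TREM2+/+ males, 0.537 to 0.700 in the other controls and 0.348 in control replicate 3. For complete loss the log2 difference of Ppp2cb was 0.87 (SE 0.38, interval 0.06 to 1.68, limma adjusted p = 0.472), and 0.87 without control replicate 3 (interval 0.28 to 1.47, adjusted p = 0.0941).

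**Figure D3:**
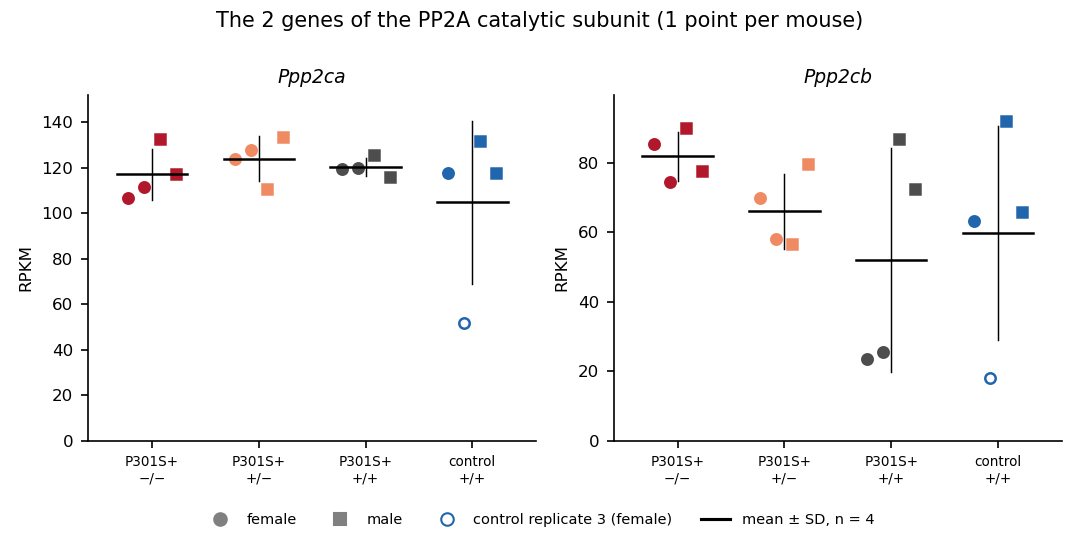
RPKM of Ppp2ca (left) and its paralogue Ppp2cb (right) in each library by genotype, with circles for females, squares for males, an open circle for control replicate 3, and bars for the mean and 1 SD (n = 4). Ppp2ca is low only in control replicate 3 (51.8 RPKM), while Ppp2cb is low there (18.0) and in both P301S+ TREM2+/+ females (23.4 and 25.4).

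Whether a genotype difference was larger in females or in males was tested as an interaction, given as the female minus the male log2 difference, with 2 mice per sex and genotype. With 16 libraries limma called 0 of 10 genes for the P301S effect, against 0.00832% of all genes, 0 of 10 for partial loss, against 0.0%, and 0 of 10 for complete loss, against 0.0%. At an unadjusted p under 0.05 it found 2, 0 and 0 of the 10, against 13.5%, 6.48% and 7.24% of all genes, and limma-voom on recovered reads called 0 in each. Mark2 had the largest of these differences. In females it was at 3.22 and 3.24 RPKM in P301S+ TREM2+/+ mice and at 6.88 and 17.1 RPKM in controls. In males it was at 4.02 and 5.21 RPKM in P301S+ TREM2+/+ mice and at 2.59 and 3.47 RPKM in controls. The value of 17.1 RPKM is that of control replicate 3. The estimated P301S effect on Mark2 was thus negative in females and positive in males. The difference between the sexes was -1.98 (SE 0.46, interval -2.97 to -0.98, limma adjusted p = 0.344) and did not pass the threshold.

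Without control replicate 3 the sex difference of Mark2 passed the threshold, at -1.38 (SE 0.31, interval -2.05 to -0.71, limma adjusted p = 0.0388), and 1 of 9 genes was called against 2.42% of all genes. Only 1 control female, at 6.88 RPKM, then remains, so that what is particular to this mouse and what holds for control females cannot be told apart. For partial loss 0 of 9 genes were called, against 3.22% of all genes, and for complete loss 0 of 9, against 4.74%. Without control replicate 2 instead, which leaves control replicate 3 as the only control female, 7 of the 10 genes and 5012 of all genes were called for the P301S effect. The sex differences in the P301S effect thus depend on which control female is kept.

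**Figure D4:**
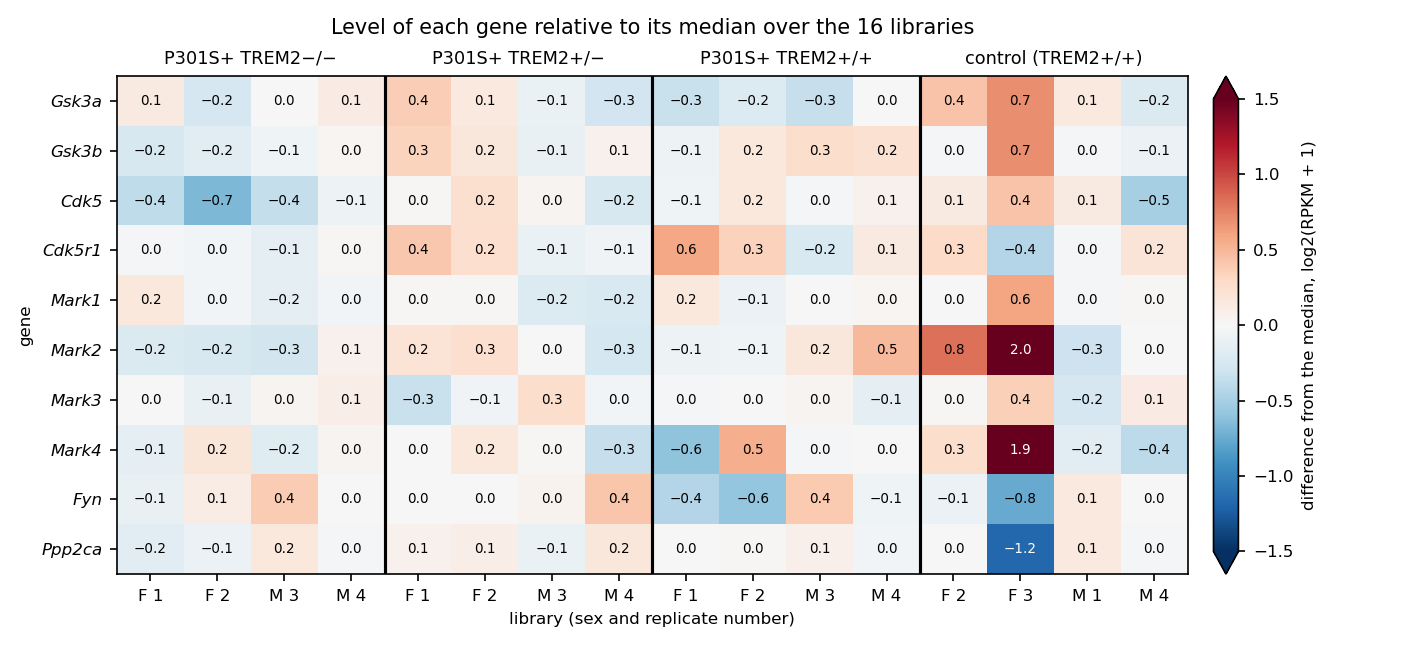
Difference of each gene from its own median over the 16 libraries on the log2(RPKM + 1) scale (colour and printed value, red above and blue below, colours saturating at 1.5), with 1 column per library, grouped by genotype and marked with sex and replicate number. Control replicate 3 departs most for Mark2, Mark4 and Ppp2ca, Cdk5 is below its median in all 4 knockouts, and Fyn is below its median in both P301S+ TREM2+/+ females.

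Other genes of tau phosphorylation were drawn from 5 lists of 98 genes in all (other tau kinases, regulators of the 10 genes, PP2A subunits and regulators, other phosphatases, and Mapt, which encodes tau). Of these 93 were tested, 3 (Syk, Lck and Ppp1cc) were below the minimum level and 2 (Ptpa and Cip2a) were not matched by symbol. Limma called 0 of 93 in each of the 7 comparisons, and 0 of 94 without control replicate 3. At an unadjusted p under 0.05 there were 18 of 93 for the P301S effect, against 13.8% of all genes, 1 for partial loss, against 2.7%, and 7 for complete loss, against 9.9%. With control replicate 3 left out there were 23, 7 and 19 of 94, against 21.2%, 10.3% and 23.7% of all genes. Median log2 differences over the 93 genes were -0.03 for the P301S effect, 0.04 for partial loss and 0.03 for complete loss, beside 0.06, 0.01 and -0.02 over all genes tested. They were -0.06, 0.03 and 0.03 over the 94 genes without control replicate 3, beside 0.01, 0.01 and -0.02. The 22 tested PP2A subunits and regulators had medians of -0.09, 0.13 and 0.10 in the same comparisons with all 16 libraries, and the 35 other tau kinases medians of -0.04, 0.06 and 0.04. Mapt itself was at 101.9 ± 8.42 RPKM in knockouts, 101.9 ± 6.38 in the heterozygotes, 103.3 ± 15.3 in P301S+ TREM2+/+ mice and 129.5 ± 41.1 in controls (n = 4 per genotype, ± SD). The 3 controls other than replicate 3 were at 110.1 ± 16.1 RPKM. No comparison of Mapt passed the threshold. These values are for the mouse gene, and mRNA of the tau transgene was not measured separately. Whether transgene reads are counted in them was not tested, so they do not give the total tau mRNA of the tau mice.

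In the sex differences without control replicate 3, the pathway genes called were 3 of 94 for the P301S effect, 4 of 94 for partial loss and 6 of 94 for complete loss, against 2.42%, 3.22% and 4.74% of all genes. For the P301S effect, 1 had a positive and 2 had a negative difference. They were Ywhag, a 14-3-3 protein (0.89, limma adjusted p = 0.0326), Ppp2cb (-1.36, adjusted p = 0.0480) and Ppp4c, the catalytic subunit of protein phosphatase 4 (-3.14, adjusted p = 0.0201). Those for partial loss included Ppp2cb (1.58, adjusted p = 0.0160) and Ppp4c (2.71, adjusted p = 0.0191). Those for complete loss all had a positive difference and were led by Ppp2cb (1.59, adjusted p = 0.00906), Ppp4c (2.76, adjusted p = 0.00957) and Set, which encodes a PP2A inhibitor (1.31, adjusted p = 0.0138). These genes share the values of the 2 P301S+ TREM2+/+ females. Set was at 17.4 and 21.8 RPKM in those females and 45.4 and 37.9 in P301S+ TREM2+/+ males. Ppp4c was at 0.216 and 0.513 RPKM in the females, from 2 and 5 reads, against 6.80 and 9.89 RPKM in P301S+ TREM2+/+ males, and control replicate 3 held 0.861 RPKM. None of these genes passed with all 16 libraries, where adjusted p for the named sex differences ran from 0.344 to 0.737.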

How the data were processed

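Per the labels' protocols, cortical RNA was made into QuantSeq 3′ libraries and sequenced on a HiSeq4000. STAR, HTSeq, edgeR and limma, and the build mm10, are named per the submitters' processing notes, without order. The deposited files hold RPKM made by the authors, a unit read from the values. Dividing 3′ reads by gene length makes levels of different genes hard to compare. Whole reads were recovered from the RPKM steps for 100.0% of the 18911 genes above 0 (tolerance 0.0002 reads), and PCR reads without molecular identifiers bound counting error only.

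Genotype and sex came from the labels. Limma 3.58.1 in R 4.3.3 (trend on) was fitted to log2(RPKM + 1), with genotype and sex, over 16 libraries (11 residual degrees of freedom) and 12015 genes with mean RPKM of at least 1, a scale that understates changes of low genes. Sex differences used genotype by sex means. The script was tested on simulated data. Gene positions and coding sequence came from GENCODE M21. The named genes were the 10 themselves, Trem2, Mapt, Prnp, Ppp2cb, Cdk5r2 and, per comparison, at most the 3 list genes of smallest p past the threshold. A list gene that met this rule is not reported here. The genes and lists were chosen with earlier results of these data known. 1 line per file that named no gene was left out. Alternatives were another pseudocount, no filter, median-of-ratios scaling, limma-voom, fewer genotypes, no sex term and left-out libraries.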

Additional observations from a re-analysis of the deposited data

Results flagged for a closer look

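Among 40 groups of 4 libraries (10 genes in 4 genotypes), 5 held a library whose gap to its nearest neighbour exceeded Dixon's 95% critical share of the group's range, where chance gives about 1 in 20. Of these, 3 were control replicate 3, with Gsk3b at 104.7 RPKM against 60.3 to 63.1 in the other controls, Mark1 at 30.4 against 19.5 to 20.1, and Mark4 at 5.84 against 0.373 to 1.16. The others were Mark2 in knockout replicate 4, at 3.66 RPKM against 2.66 to 2.83, and Fyn in heterozygote replicate 4, at 59.96 against 44.3 to 46.3. The 3 groups with control replicate 3 share 1 library and are not independent. Mark4 passed the minimum level only through that library, so its place there is no separate result. That library lay outside the range of the others for 66.6% of all genes tested. The share of flagged groups over all genes is not given here.

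In 4 cases the females of a comparison moved one way and the males the other, each sex's libraries without overlap. With so few mice per sex and genotype, such cases also arise by chance. The number of cases examined and the share of such cases over all genes are not given here. Whether 4 cases are more than chance gives was not tested, so they are listed as a description. Gsk3a differed between knockouts and heterozygotes by -0.31 in females and 0.26 in males in mean log2(RPKM + 1), and this sex difference was not tested. Gsk3b differed by 0.21 and -0.26 for partial loss (limma adjusted p = 0.852 for the difference between the sexes), Mark2 by -1.498 and 0.48 for the P301S effect (adjusted p = 0.344), and Mark2 by 0.30 and -0.47 for partial loss (adjusted p = 0.817).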

How the results depend on the processing

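No paired analysis was possible because the labels number no replicates, and numbers given in accession order pair nothing. Over the 70 log2 differences of the 10 genes in 7 comparisons, none crossed the threshold under any alternative. Leaving out 1 library at a time, 1051 of 1113 recomputed values kept their direction and 62, belonging to 30 differences, turned. The lowest and highest values over these fits were, for the P301S effect Gsk3b (-0.065 to 0.20), Cdk5 (-0.20 to 0.10), Mark1 (-0.20 to 0.015), Mark3 (-0.21 to 0.02), Fyn (-0.14 to 0.10) and Ppp2ca (-0.015 to 0.41). They were, for partial loss Gsk3b (-0.12 to 0.042), Cdk5 (-0.081 to 0.054), Cdk5r1 (-0.21 to 0.015), Mark2 (-0.22 to 0.11), Mark3 (-0.12 to 0.091), Mark4 (-0.32 to 0.10) and Ppp2ca (-0.014 to 0.14). They were, for complete loss Mark3 (-0.011 to 0.072) and Mark4 (-0.29 to 0.12). They were, for knockouts against heterozygotes Gsk3a (-0.11 to 0.10), Mark3 (-0.056 to 0.15), Mark4 (-0.079 to 0.14) and Fyn (-0.12 to 0.085). The ranges were, for heterozygotes against controls Gsk3b (-0.093 to 0.17), Cdk5 (-0.22 to 0.084), Cdk5r1 (-0.076 to 0.23) and Mark3 (-0.22 to 0.011). The ranges were, for knockouts against controls Cdk5r1 (-0.24 to 0.058), Mark3 (-0.18 to 0.055) and Ppp2ca (-0.057 to 0.37). The ranges were, for all tau mice against controls Gsk3b (-0.16 to 0.11), Cdk5r1 (-0.10 to 0.20), Mark3 (-0.21 to 0.029) and Ppp2ca (-0.015 to 0.41). The other alternatives kept the direction of 459 of 483 values and turned 24, belonging to 22 differences. A pseudocount of 0.1 gave Mark4 0.063 for partial and 0.12 for complete loss, and limma-voom on recovered reads 0.077 and 0.19. Median-of-ratios scaling gave Gsk3b -0.082 and Fyn -0.089 for the P301S effect, and Fyn 0.0009 for knockouts against heterozygotes. Leaving out control replicate 3 and both P301S+ TREM2+/+ females, an alternative that leaves 1 genotype with males alone, gave Cdk5 0.11, Cdk5r1 -0.13, Mark1 0.074, Mark2 0.27 and Ppp2ca -0.045 for the P301S effect, Cdk5r1 0.064 and Mark3 0.081 for partial loss, Gsk3b 0.16, Cdk5 0.083, Cdk5r1 -0.063 and Mark3 0.019 for heterozygotes against controls, Mark3 0.064 and Ppp2ca -0.054 for knockouts against controls and Gsk3b 0.14, Cdk5r1 -0.14, Mark3 0.0068 and Ppp2ca -0.023 for all tau mice against controls. The cause of these turns was not tested. Between the sexes, the number of genes called for the P301S effect ranged from 0 to 7 with 1 library left out (7 without control replicate 2, 1 without control replicate 3), and sex differences could not be fitted without the 3 libraries. Over all genes tested, complete loss called 1 gene with 16 libraries, 7 with only the genotypes compared, 0 without the filter, with limma-voom and without the 3 libraries, and 0 to 14 with 1 library left out. Knockouts against heterozygotes called 0 genes, 1 with only the genotypes compared and 44 without the 3 libraries. Heterozygotes against controls called 0 genes, 1 with limma-voom and 5 without the 3 libraries, knockouts against controls 0, 1 and 1, and all tau mice against controls 1 gene, 0 without the filter and 2 without the 3 libraries. For genes with few reads, such as Mark4 with 3 to 38 in most libraries, the number of reads limits what could be detected. The cause of the few Mark4 reads was not tested.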

Other observations

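The ratio of Gsk3a to Gsk3b within a library, computed after the levels were seen and therefore given as a description, was 1.24, 0.893, 0.9995 and 1.01 in knockouts, 0.9751, 0.940, 0.956 and 0.741 in the heterozygotes, 0.796, 0.738, 0.620 and 0.811 in P301S+ TREM2+/+ mice and 1.079, 1.32, 0.958 and 0.874 in controls. The P301S+ TREM2+/+ ratios lay below all knockout ratios and all control ratios, control replicate 3 included, and overlapped the heterozygote ratios. The share of other gene pairs whose ratios separate in this way is not given here, so whether chance gives as much was not tested. The ratio of Gsk3a to Gsk3b does not depend on how a library is scaled, and both genes are counted per their own length. The ratio of Cdk5r1 to Cdk5 was 8.76, 10.7, 7.87 and 7.202 in knockouts, 8.81, 6.78, 6.12 and 7.68 in the heterozygotes, 10.6, 7.68, 5.84 and 7.08 in P301S+ TREM2+/+ mice and 6.03, 7.46, 3.67 and 11.0 in controls, and all genotypes overlapped.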
